A study of Homo sapiens with 4 samples.

Results

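The 9 genes described here are CDK2 and the genes of the proteins that hold cyclin-dependent kinases (CDKs) in check. They were chosen by name, and all 9 were found among the 60279 genes listed in the deposited count tables. RNA sequencing was performed on the breast cancer cell line SUM159, a line of the triple-negative (TNBC) class, grown with serum, insulin and hydrocortisone. There was 1 library for each of 4 conditions, namely untreated, palbociclib, indisulam and the combination. The sample labels give 0.5 µM palbociclib and 2 µM indisulam for 10 days, whereas the series text gives 2 µM palbociclib and 3 µM indisulam for 16 h in technical duplicates. The dose and duration of these libraries, and whether duplicates were pooled, could not be settled from the sources. Whether the untreated cells received a vehicle was not stated. There were no replicates, so each difference below is between single libraries, has no p-value, and carries an interval for counting error only.

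CDK2 binds cyclin E and cyclin A and drives cells into and through DNA replication. It is opposed by the CIP/KIP proteins p21 (CDKN1A), p27 (CDKN1B) and p57 (CDKN1C), which bind the cyclin and the kinase together. The INK4 proteins p16 (CDKN2A), p15 (CDKN2B), p18 (CDKN2C) and p19 (CDKN2D) bind CDK4 and CDK6 alone, the same kinases that palbociclib inhibits. CDKN3 is named with them but encodes a phosphatase that removes the activating phosphate from CDK2, and its transcript peaks late in the cell cycle. Indisulam brings RBM39, a splicing factor, to a ubiquitin ligase through DCAF15 so that RBM39 is degraded, and the drug was described as an indirect inhibitor of CDK2. The question put to these transcripts is therefore whether the brakes on CDK2 and CDK4/6, or CDK2 itself, differed in RNA level under either drug or both. The activity and abundance of the proteins are outside what read counts measure.

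Reads in genes numbered 12555908 to 16712174 per library, and mitochondrially encoded genes took 4.90% to 7.33% of them. The markers fixed for the line were as follows. VIM, the mesenchymal filament gene, had 36565 to 57726 reads and CD44 9628 to 12680. ESR1 had 4 to 16 reads and PGR 0 to 3, while ERBB2 transcript was present at 1628 to 1831 reads. The epithelial genes EPCAM and CDH1 had 5 to 16 and 10 to 28 reads. PTPRC, a leukocyte gene, had 153 to 292 reads and PECAM1, an endothelial gene, 191 to 519, with the highest count of PTPRC under indisulam and that of PECAM1 under palbociclib. The labels named no sequencing batch, so batch and condition cannot be told apart.

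Levels are given as CPM, the read count of a gene per 1000000 reads in genes of its library. A member was taken as too low to read when its mean over the 4 libraries was under 1 CPM or when no library had more than 3 reads. By this rule 7 members were readable, and CDKN2A and CDKN2B were not. For comparisons between libraries, log2 ratios were taken of counts scaled to the mean library total plus a pseudocount of 1. A gene was called when the ratio was at least 2-fold and its 95% counting interval excluded equality. The same rule was applied to all 14269 genes with a mean of at least 1 CPM, which gave the background share of called genes beside each count of members. The 3 comparisons with untreated share that library, so their values stand side by side and are not independent. A yardstick for noise between libraries came from the departure from additivity, which is defined with CDKN3. Its spread was taken, from medians, over genes within 1.5-fold of a member's level and divided by the square root of 2. If the 4 libraries vary independently, this is a ceiling on the typical SD of 1 log2 ratio at that level. It is 1 SD over many genes, so it sets no limit for a single gene. A ratio above it can still be noise. This noise bound was 0.25 for CDKN1A, 0.28 for CDK2 and CDKN2C, 0.29 for CDKN1B and CDKN3, 0.43 for CDKN2D and 0.52 for CDKN1C.

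**Figure D1:**
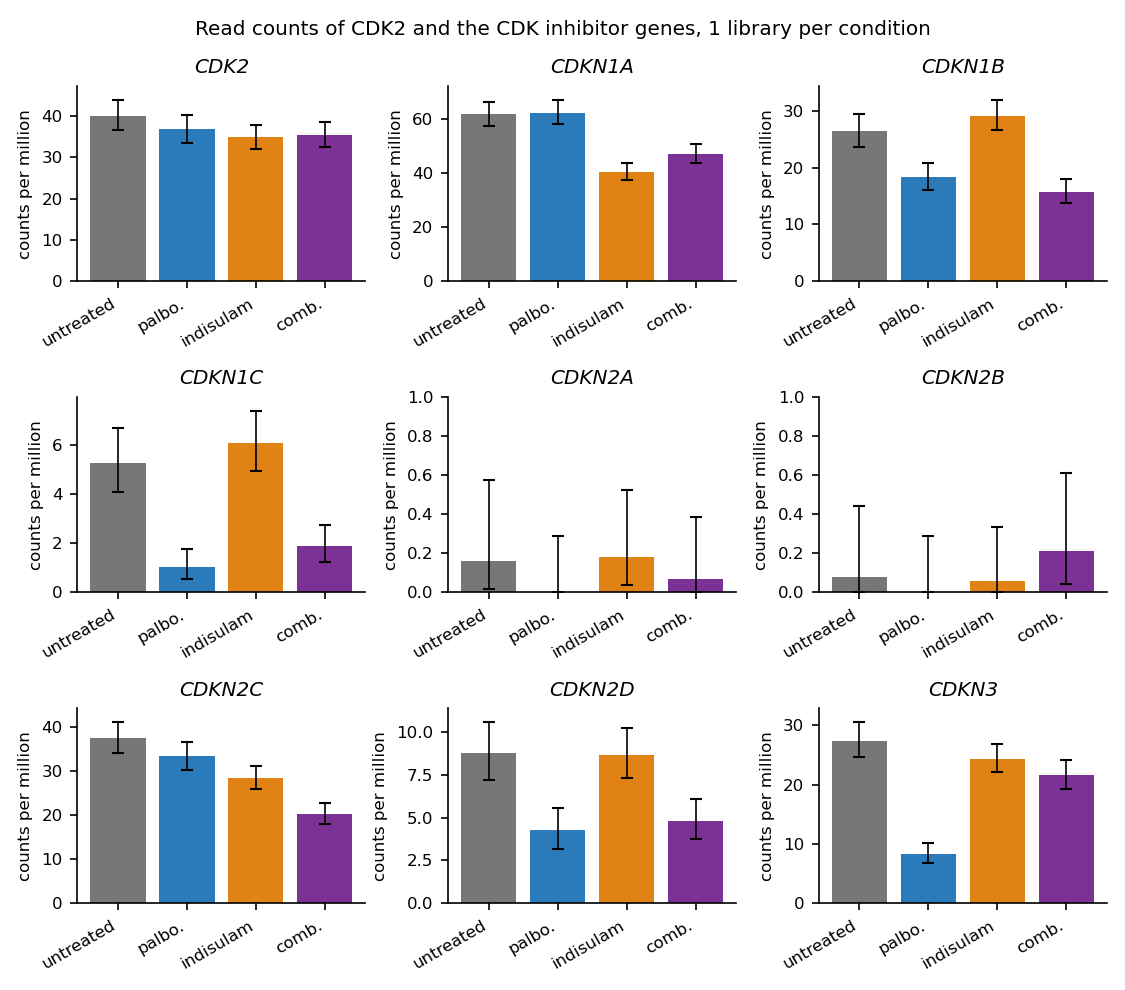
CPM of the 9 genes in the 4 libraries, 1 bar per library, with exact 95% Poisson intervals as error bars and a separate vertical scale for each gene. CDK2 stayed between 34.8 and 40.1 CPM, CDKN1C, CDKN2D and CDKN3 were lowest with palbociclib, and no bar of CDKN2A or CDKN2B exceeded 0.209 CPM.

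CDK2 (ENSG00000123374, chromosome 12, 55966781 to 55972789, plus strand, GRCh38) was the steadiest of the readable members. Its count was 503 (40.1 CPM) without treatment, 466 (36.7 CPM) under palbociclib, 582 (34.8 CPM) under indisulam and 508 (35.4 CPM) under both. The highest and lowest libraries differed by 1.15-fold. Relative to untreated, palbociclib gave a log2 ratio of -0.13 (-0.31 to 0.06), indisulam one of -0.20 (-0.37 to -0.03) and both drugs one of -0.18 (-0.36 to -0.00134). All 3 were smaller than the noise bound. The ratio of combination to palbociclib, where indisulam was added, was -0.05 (-0.23 to 0.13), and that of combination to indisulam was 0.02 (-0.15 to 0.19). A 2-fold difference in CDK2 transcript lay outside every one of these 5 counting intervals. CDK2 lies wholly within PMEL, the gene of a melanosome protein, on the opposite strand. PMEL itself had 10 to 27 reads. Of the 65-base stretches of annotated CDK2 transcripts, 10.4% also occur in transcripts of PMEL or of an antisense RNA.

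Compared per kilobase of the reference (MANE Select) transcript, the untreated cells carried CDKN2C at 37.7 RPKM, which is CPM per kilobase, CDKN3 at 32.6 and CDKN1A at 29.2. CDK2 followed at 17.9 RPKM, CDKN1B at 10.97, CDKN2D at 6.15 and CDKN1C at 2.96. In this order CDKN2C and CDKN3 had overlapping counting intervals, as had CDKN3 and CDKN1A, and the other readable neighbours did not overlap. With palbociclib CDKN3 fell to 9.93 RPKM, below CDK2 at 16.4 RPKM. In the indisulam library CDKN3 and CDKN2C again led, at 29.0 and 28.6 RPKM. In the combination CDKN3, CDKN1A and CDKN2C were at 25.8, 22.2 and 20.4 RPKM, with overlapping intervals between neighbours. The order of the top 3 depended on the length used, and CDKN1A came first in every library when all annotated exons were counted. CDKN1C was the lowest readable member in every library by either length.

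With palbociclib, 3 of the 7 readable members were called lower than untreated, namely CDKN1C, CDKN3 and CDKN2D. The background was 4.89% of all tested genes called lower and 5.85% called higher, and 0 members were higher. The median log2 ratio over the 7 members was -0.53, against -0.02 over all tested genes. CDKN1B was also at a lower level, below the call, and CDKN1A, CDKN2C and CDK2 had intervals that spanned equality. The comparison of combination with indisulam shares no library with that of palbociclib with untreated and also differs by palbociclib. There 1 of 7 members, CDKN1C, was called lower (background 3.15%) and 0 were called higher (background 5.04%). CDKN1B, CDKN2C and CDKN2D had intervals wholly below equality in that comparison and that of CDKN1A lay above it.

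CDKN1C (ENSG00000129757, chromosome 11, 2883213 to 2885775, minus strand) encodes p57, an imprinted CIP/KIP inhibitor that restrains growth in development. Untreated cells had 66 reads (5.26 CPM), against 13 (1.02 CPM) under palbociclib, 101 (6.04 CPM) under indisulam and 27 (1.88 CPM) under both drugs. Both libraries that contained palbociclib were low and both without it were high, and the counting intervals of these pairs did not overlap. The share of all tested genes with such a separation of libraries was not counted, here or for the members below. A lack of overlap therefore describes the counts and does not set a member apart from other genes. Palbociclib against untreated gave a log2 ratio of -2.28 (-3.12 to -1.45), and the combination against indisulam one of -1.65 (-2.25 to -1.04). Among 1420 genes of similar level, 0.986% had a ratio this low or lower in the first comparison and 1.55% in the second. The log2 ratios of CDKN1C for indisulam were not called, at 0.20 (-0.25 to 0.64) against untreated and 0.83 (-0.09 to 1.76) when added to palbociclib. The combination remained called lower than untreated at -1.45 (-2.09 to -0.81). These values rest on few reads, and the gene drops out when a mean of 5 CPM is required.

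CDKN2D (ENSG00000129355, chromosome 19, 10566460 to 10569059, minus strand) encodes the INK4 protein p19. Its count was 110 (8.76 CPM) without treatment, 54 (4.25 CPM) under palbociclib, 145 (8.68 CPM) under indisulam and 69 (4.81 CPM) under both. Both libraries with palbociclib were again below both without it, and their counting intervals did not overlap. For palbociclib against untreated the log2 ratio was -1.03 (-1.50 to -0.56), which just passed the 2-fold line and did not pass it with a pseudocount of 5, at -0.98. For the combination against indisulam it was -0.84 (-1.25 to -0.43), not called. With indisulam the ratio was -0.01 (-0.37 to 0.34) against untreated and 0.17 (-0.34 to 0.68) against palbociclib.

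CDKN1B (ENSG00000111276, chromosome 12, 12685498 to 12722369, plus strand) encodes p27, which accumulates in resting cells mainly through control of its translation and degradation. Untreated cells had 332 reads (26.4 CPM), against 232 (18.3 CPM) under palbociclib, 486 (29.1 CPM) under indisulam and 226 (15.7 CPM) under both drugs. The 2 libraries with palbociclib were the lowest, without overlap of their counting intervals with those of the other two. Palbociclib against untreated gave a log2 ratio of -0.53 (-0.77 to -0.29). The combination gave -0.88 (-1.11 to -0.66) against indisulam and -0.75 (-0.99 to -0.50) against untreated. These exceeded the noise bound of 0.29, which sets no limit for a single gene, and were short of 2-fold. Among genes of similar level, 14.1% had a ratio as low for palbociclib against untreated, 4.01% for the combination against indisulam and 14.1% for the combination against untreated. SKP2, whose protein marks p27 for degradation, had log2 ratios of -0.34 with palbociclib and -0.97 in the combination against untreated, and its partner CKS1B -0.28 and 0.02, none of them called.

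**Figure D2:**
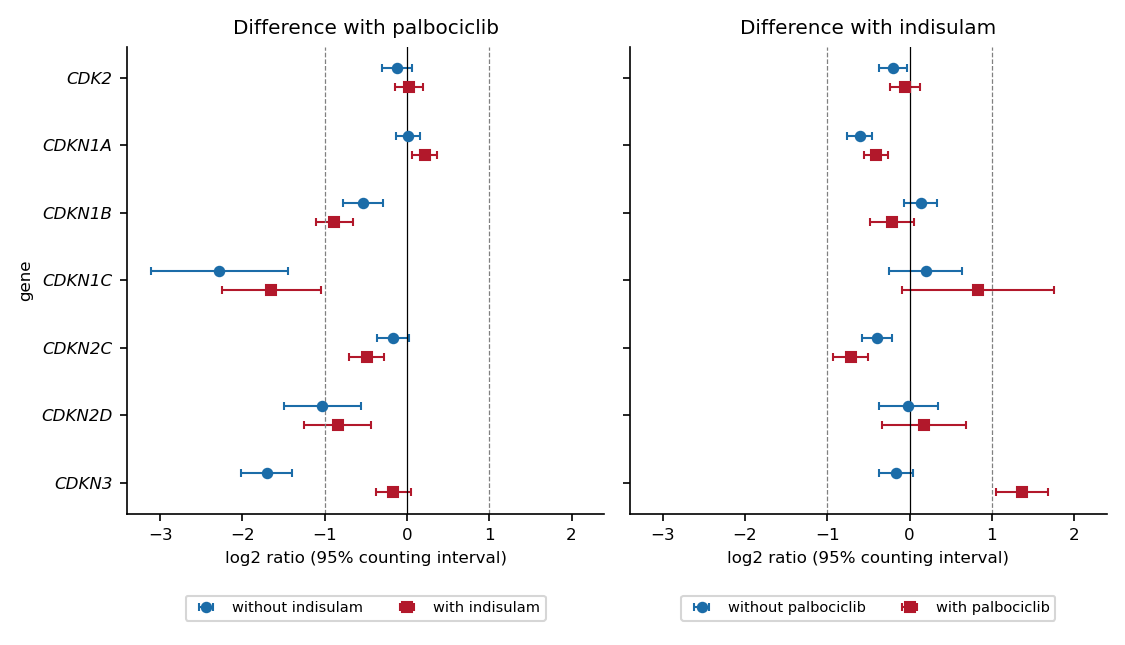
Log2 ratios of the 7 readable members for palbociclib (left, without and with indisulam) and for indisulam (right, without and with palbociclib), with 95% counting intervals and dashed lines at 2-fold. CDKN1C, CDKN2D and CDKN1B lie to the left of 0 for palbociclib in both estimates, and CDKN3 lies at -1.71 without indisulam and at -0.17 with it.

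CDKN3 (ENSG00000100526, chromosome 14, 54396849 to 54420218, plus strand) was called lower with palbociclib and higher when indisulam was added to it. Its count was 344 (27.4 CPM) without treatment, 106 (8.35 CPM) under palbociclib, 407 (24.4 CPM) under indisulam and 311 (21.7 CPM) under both. The palbociclib library alone was low, and the other 3 lay within a narrow range. The log2 ratio of palbociclib to untreated was -1.71 (-2.02 to -1.39), and 0.685% of 2772 genes of similar level were as low. With indisulam present, the log2 ratio for palbociclib was -0.17 (-0.38 to 0.04). Indisulam itself had a ratio of -0.17 (-0.38 to 0.04) to untreated. The combination library had a log2 ratio of 1.37 (1.05 to 1.68) to the palbociclib library.

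CDKN3 was thus the 1 member of 7 called higher in the combination against palbociclib, where 9.56% of tested genes were called higher. None of the 7 was called lower, against a background of 7.38%. The departure from additivity takes the log2 ratio of both drugs over untreated and subtracts from it the log2 ratios of each drug alone. It was 1.54 (1.16 to 1.92) for CDKN3, above 98.2% of all tested genes, where 3.93% of genes were called above additivity and 3.84% below. The other 6 members had departures between -0.35 and 0.63, none of them called. Those of CDKN1B, at -0.35 (-0.68 to -0.02), and CDKN2C, at -0.32 (-0.60 to -0.04), had intervals just below 0. With edgeR's upper-quartile scaling the interval of CDKN1B spanned 0, at -0.33 (-0.66 to 0.0017).

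Genes of mitosis were also low in the palbociclib library. Of a list of 20 mitotic genes, all tested, 16 were called lower and 0 higher with palbociclib against untreated, with a median log2 ratio of -1.43, where 4.89% of all tested genes were called lower. PECAM1 was high in that library alone, at 40.9 CPM against 15.2 CPM in the untreated, 17.5 CPM in the indisulam and 20.4 CPM in the combination library. The part of the mitotic genes and of PECAM1 in the results for CDKN1C, CDKN2D and CDKN3 was not tested. In bulk RNA, fewer cells in a cell cycle phase and less RNA per cell cannot be told apart. In the combination against palbociclib 13 of the 20 were called higher (9.56% of all tested genes), with a median of 1.26. Against untreated 2 were lower (10.5% of all tested genes) and 0 higher, with a median of -0.25. The 2 were AURKB at -1.31 and BUB1 at -1.21, a kinase of chromosome segregation and a kinase of the spindle checkpoint. KIF20A, a kinesin of cytokinesis, was at -0.92 and PTTG1, the gene of securin, at -0.87, neither called. Of these 20 genes, 8 had a called departure above additivity (3.93% of all tested genes), their median departure was 0.82, and 1 exceeded CDKN3. In the combination CDKN1C stood at -1.45 and CDKN2D at -0.86 against untreated.

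**Figure D3:**
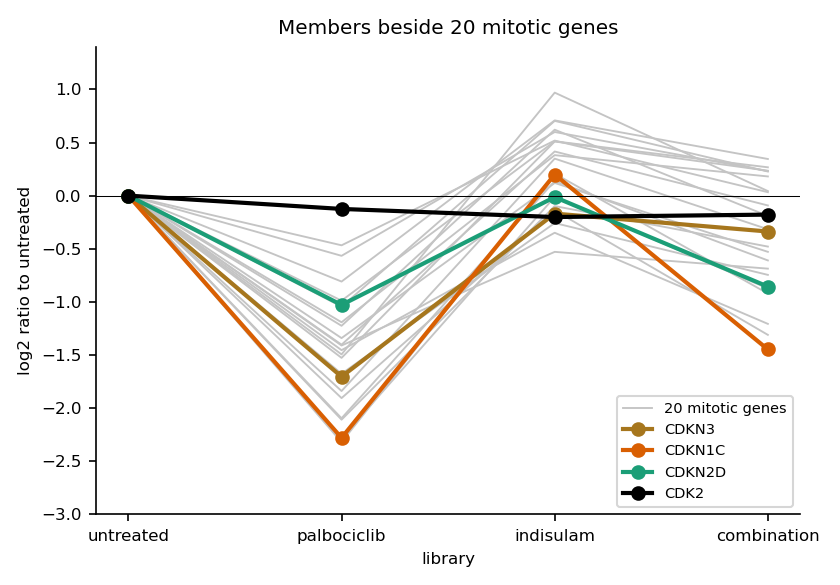
Log2 ratio to the untreated library of CDKN3, CDKN1C, CDKN2D and CDK2 (coloured) and of 20 mitotic genes (grey) in the 4 libraries, with a line joining the values of a gene. With palbociclib CDKN3 lies at -1.71 and the median mitotic gene at -1.43, and in the combination CDKN3 is at -0.34 while CDKN1C remains at -1.45.

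The promoter sequences of the members that were lower with palbociclib are shown because genes with late cell cycle expression often carry a short element named CHR (TTTGAA), usually beside CCAAT boxes. RefSeq windows from 250 bases before to 50 after a transcript start (GRCh38.p14) were found for 7 of the 9 members, and CDK2 and CDKN1C were not matched. On either strand, CHR is in 15.2% of all 35116 windows, CCAAT in 34.6%, and an E2F element (TTTNNCGC with C or G at each N) in 3.31%. Among the 10 windows of the 7 members, the CHR letters occurred in 1, that of CDKN3, which is near the share of all windows. The E2F letters occurred in none of them. The stretches below are the part of each window outside annotated exons, 5′ to 3′ on the gene's strand, with CCAAT and CHR (read on the opposite strand as TTCAAA) in capitals. The stretch of CDKN3 is chr14:54396757-54396848 on the plus strand, that of CDKN2D chr19:10569060-10569229 on the minus strand and that of CDKN1B chr12:12717118-12717367 on the plus strand.
CDKN3: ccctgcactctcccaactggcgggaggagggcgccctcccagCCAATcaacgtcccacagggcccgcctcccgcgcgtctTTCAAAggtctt
CDKN2D: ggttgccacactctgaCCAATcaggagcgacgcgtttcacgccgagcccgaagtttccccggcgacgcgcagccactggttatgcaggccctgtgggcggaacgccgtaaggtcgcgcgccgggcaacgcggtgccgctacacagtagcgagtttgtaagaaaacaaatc
CDKN1B: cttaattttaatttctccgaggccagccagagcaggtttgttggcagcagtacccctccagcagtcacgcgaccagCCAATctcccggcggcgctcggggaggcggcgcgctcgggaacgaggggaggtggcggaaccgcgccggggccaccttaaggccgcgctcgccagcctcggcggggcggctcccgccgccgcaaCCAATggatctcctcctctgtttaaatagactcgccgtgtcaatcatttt
The CHR letters of CDKN3 lie at -170 to -165 from the RefSeq start, and the CCAAT shown at -208 to -204. The CCAAT of CDKN2D lies at -234 to -230, and those shown for CDKN1B at -174 to -170 and -50 to -46. CDKN3 and CDKN1B each hold 1 further CCAAT match, on the opposite strand and within exons, that is not shown. CCAAT also occurred in a window of CDKN2C, at -95 to -91, whose ratio with palbociclib was -0.17 with an interval that spanned 0. A match of letters is a description and not a bound site.

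CDKN1A (ENSG00000124762, chromosome 6, 36676460 to 36687337, plus strand), which encodes p21 and is activated by p53, had its lowest levels in the libraries with indisulam. Untreated cells had 776 reads (61.8 CPM), against 792 (62.4 CPM) under palbociclib, 678 (40.6 CPM) under indisulam and 676 (47.1 CPM) under both drugs. Both libraries with indisulam were below both without it, and their counting intervals did not overlap. The log2 ratio for indisulam was -0.61 (-0.75 to -0.46) against untreated and -0.41 (-0.55 to -0.26) when added to palbociclib. Both were larger than the noise bound of 0.25, which sets no limit for a single gene, and short of the 2-fold call. Among 3144 genes of similar level, 9.89% had a ratio this low or lower in the first comparison and 17.0% in the second. The log2 ratio for palbociclib was 0.01 (-0.13 to 0.16) against untreated and 0.21 (0.06 to 0.37) when added to indisulam, the latter within the bound. Of the 65-base stretches of CDKN1A transcripts, 2.76% are shared with DINOL, an RNA of the opposite strand that was not among the listed genes.

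CDKN2C (ENSG00000123080, chromosome 1, 50960745 to 50974634, plus strand), the gene of p18, was counted 471 times (37.5 CPM) without treatment, 423 times (33.3 CPM) under palbociclib, 476 times (28.5 CPM) under indisulam and 291 times (20.3 CPM) under both. It was the readable member whose combination library stood below all the others, with no overlap of counting intervals. Relative to untreated, palbociclib gave -0.17 (-0.36 to 0.02) on the log2 scale, indisulam -0.40 (-0.58 to -0.21) and both drugs -0.89 (-1.10 to -0.68), the last a 1.85-fold difference that missed the call. The combination was at -0.72 (-0.93 to -0.50) against palbociclib and at -0.49 (-0.70 to -0.28) against indisulam. Among genes of similar level, 8.83% and 13.1% had ratios as low in these comparisons. Of its 65-base stretches, 18.8% are shared with an antisense RNA that was not among the listed genes.

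With indisulam against untreated, 0 of the 7 members were called in either direction, where 8.39% of tested genes were called higher and 6.69% lower. The intervals of CDKN1A, CDKN2C and CDK2 lay wholly below equality, as did those of 29.8% of all tested genes, and the other 4 spanned it. For CDKN3 this depended on the scaling, since its interval lay below 0 with edgeR's TMM scaling, at -0.24 (-0.45 to -0.04). In the combination against untreated, 1 of 7 members was called lower (CDKN1C), at a background of 10.5%, and 0 were called higher, at a background of 12.9%. The log2 ratios of all 7 were negative with intervals below 0, as was so for 34.1% of all tested genes. For CDK2 this depended on the scaling, since its interval spanned 0 when mitochondrially encoded genes were left out of the totals, at -0.17 (-0.35 to 0.0083). The median was -0.75, against 0.05 over all tested genes. No member of the readable set was called higher than untreated in any treated library.

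**Figure D4:**
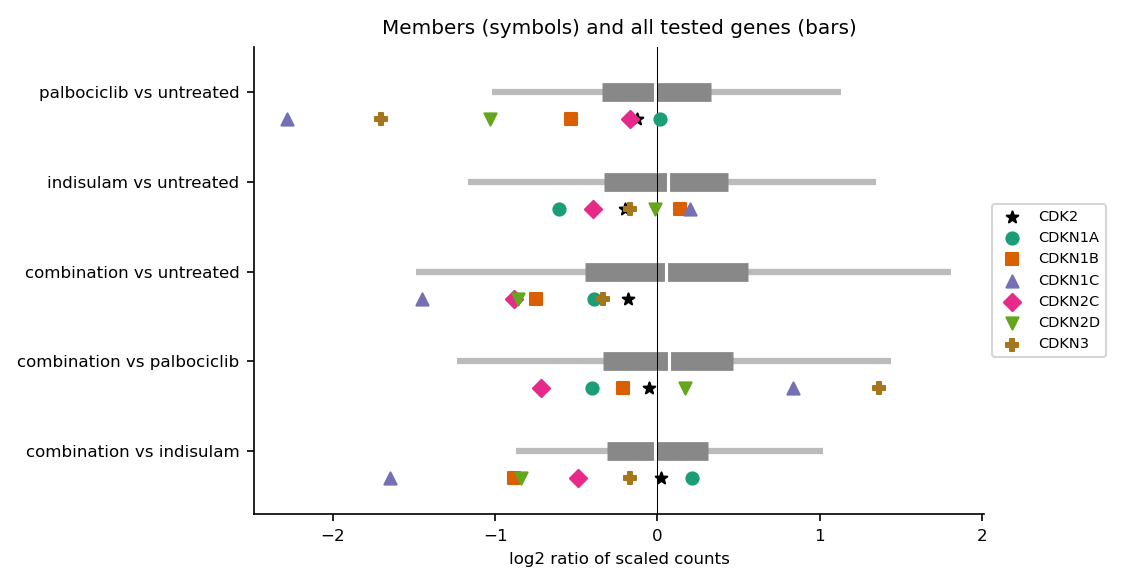
Log2 ratios of the 7 readable members (symbols) beside all 14269 tested genes (thick bar, middle 50% of genes, thin bar, middle 90%, white mark, median) in the 5 comparisons. In the combination against untreated the members lie between -1.45 and -0.18, all to the left of the median of 0.05.

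The inhibitors were also read per CDK2 read within each library, which needs no scaling between libraries. CDKN1B gave 0.660 reads per CDK2 read (0.575 to 0.758) without treatment, 0.498 (0.425 to 0.583) under palbociclib, 0.835 (0.740 to 0.942) under indisulam and 0.445 (0.380 to 0.520) under both. In the same order CDKN1C gave 0.131, 0.0279, 0.174 and 0.0531, and CDKN2D 0.219, 0.116, 0.249 and 0.136. This measure divides the same member counts by those of CDK2, which ranged by 1.15-fold, so it is not separate evidence. For CDKN1C and CDKN2D both libraries with palbociclib were below both without it, with no overlap of intervals. The intervals of CDKN1B overlapped between untreated and palbociclib. CDKN1A gave 1.54 reads per CDK2 read without treatment, 1.70 under palbociclib, 1.16 under indisulam and 1.33 under both. Its intervals overlapped between untreated (1.38 to 1.73) and combination (1.19 to 1.49), so that this pair was not separated on this measure.

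CDKN2A (ENSG00000147889, chromosome 9, 21967752 to 21995301, minus strand) had 2 reads without treatment, 0 under palbociclib, 3 under indisulam and 1 under both. The gene also yields the ARF protein from another first exon, and the 2 products share a single count. CDKN2B (ENSG00000147883, chromosome 9, 22002903 to 22009305, minus strand) had 1, 0, 1 and 3 reads in the same order. All were at or under the floor of 3 reads, which corresponds to 0.239 CPM in the untreated, 0.236 CPM in the palbociclib, 0.180 CPM in the indisulam and 0.209 CPM in the combination library. No fold is therefore given, and no difference between conditions was detectable at this depth. Over all 56319092 reads, CDKN2A had 6 reads, or 0.107 CPM with an exact Poisson interval of 0.0391 to 0.232. CDKN2B had 5 reads, or 0.0888 CPM (0.0288 to 0.207). Reads without a unique alignment were tallied apart from the genes, and 11.6% of the 65-base stretches of CDKN2A transcripts and 0.401% of those of CDKN2B occur in transcripts of another gene.

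The neighbours of these genes on the short arm of chromosome 9 were read beside them. MTAP (21802636 to 21937651), a methionine salvage enzyme made in most cell types, had 1 read in each of the 4 libraries. CDKN2B-AS1, the antisense RNA across CDKN2B, had 0 in every library, as did DMRTA1, IFNE and HACD4. An interval between KLHL9 and ELAVL2 was set after the counts were seen. It held 39 listed genes, of which 34 had 0 reads in all 4 libraries. Among all 60279 listed genes, 29056 had at least 1 read in some library, so 0 reads are common. Of the 10 protein-coding genes of the interval, 7 had 0 reads in all 4 libraries. The highest count of any of the 39 genes in a library was 6, for the noncoding LINC01239, and together they had 31 reads. Beyond this interval KLHL9, a ubiquitin ligase adaptor, had 72 to 221 reads, FOCAD 20 to 71 and ELAVL2, a neuronal RNA-binding protein, 24 to 66. Most other genes beyond it also had 0 reads, among them HACD4, which lies between FOCAD and KLHL9, and MLLT3 had at most 2. Many genes of the interval, such as the interferon genes, are silent in most cells, and DNA copy number was not measured here.

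**Figure D5:**
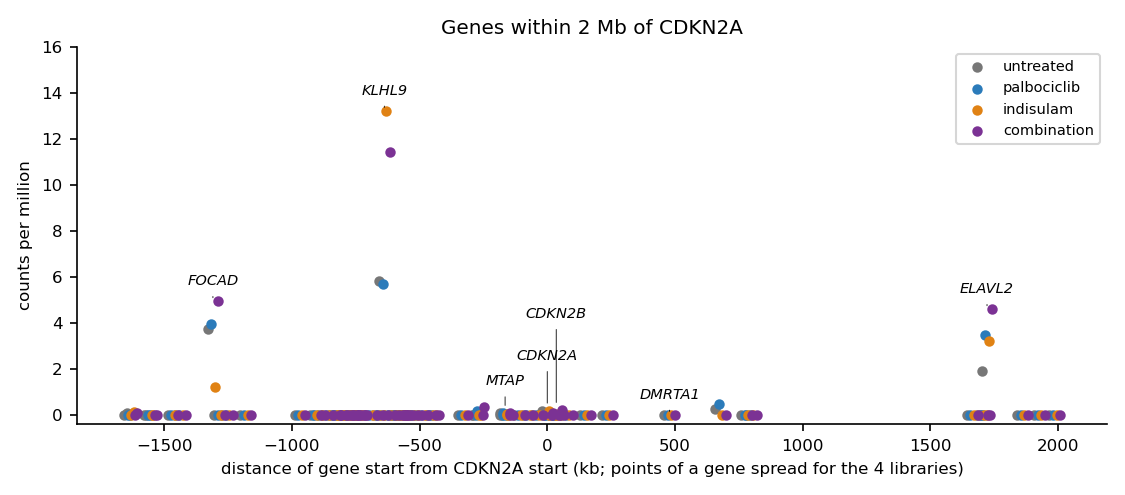
CPM of the annotated genes within 2 Mb of CDKN2A, by the distance of the gene start from that of CDKN2A in kb, with 4 points per gene for the 4 libraries. Genes from MTAP to DMRTA1 lie at or near 0, as do most genes farther out, such as HACD4 and MLLT3. FOCAD, KLHL9 and ELAVL2 lie between 1.197 and 13.2 CPM.

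The binding partners of the members were read from lists. Of 17 partners and regulators of CDK2, 16 were tested, with 1 called higher and 2 lower with palbociclib, 1 higher and 0 lower with indisulam, and 4 higher and 2 lower in the combination against untreated. The shares over all tested genes were 5.85% higher and 4.89% lower, 8.39% and 6.69%, and 12.9% and 10.5% in these comparisons. CCNE1 and CCNE2, the cyclin E genes, were called higher in the combination at 2.05 and 1.75, as was CDC25A, a phosphatase that activates CDK2, at 1.29. PKMYT1, on the same list, was also called higher, at 19.9 CPM in the combination against 9.40 CPM in the untreated library. CDC25B, another phosphatase of the CDC25 family, was called lower there at -1.02. CCNH, cyclin H of the CDK-activating kinase, was called lower there at -1.22, whereas its partners CDK7 and MNAT1 had 0.33 and -0.36, not called. CCNA2, cyclin A of replicating and dividing cells, was called lower with palbociclib at -2.01 and had -0.47 in the combination. Of the 18 INK4 targets and RB family genes, 5 were called higher and 0 lower in the combination, against the same 12.9% and 10.5% of all tested genes. Among these were CDK6 at 1.92, CCND1 at 1.63, E2F1 at 1.61 and E2F7 at 2.31, while CDK4 had -0.19. Among 21 p53 target genes in the combination, 3 were called higher, near the 12.9% of all tested genes, and 5 lower, where 10.5% were. AEN was at 2.196 and GDF15 at 2.13, whereas FDXR was at -2.55 and DDB2 at -1.91, and CDKN1A had -0.39. Of 18 upstream factors known to act on these genes, 1 was called higher and 0 lower in the combination, again beside 12.9% and 10.5% of all tested genes, and this was ETS2 at 1.19. CBX7 and ID1, repressors of INK4 transcription, had -0.99 and -0.95, and BMI1, another such repressor, had 0.78, none of them called.

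Genes with the pattern most like that of a member were sought for the 3 members that ranged by at least 2-fold, over the 4 libraries and among 8013 genes at a mean of 20 CPM or more. The measure was the Euclidean distance between centred log2 levels. Nearest to CDKN1C were KIF20A (distance 0.47), SYNE2 (0.49) and KIF2C (0.51). KIF20A stood at 73.2 CPM without treatment, 14.6 under palbociclib, 84.5 under indisulam and 38.6 under both. Nearest to CDKN2D were HEIH (0.083), RALGPS2 (0.093) and ZC3H6 (0.135). Nearest to CDKN3 were PRR11 (0.207), AMPH (0.263) and SPOCD1 (0.316). PRR11 had 59.3, 20.01, 57.6 and 43.4 CPM in the same order of libraries. With 4 points, such likeness is a description of these libraries only.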

How the data were processed

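The deposited values are raw read counts per Ensembl gene, 1 table per library, from strand-specific poly(A) libraries. Per the submitters' processing notes, the authors used TopHat2 2.1, HTSeq and GRCh38, with no role stated. The annotation release and the strand setting of the counting are not given in the sources used here. Tallies of unassigned reads (9.61% to 10.1% of each table) were kept apart. Groups were taken from the labels.

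Symbols, positions and lengths came from GENCODE release 44 (GRCh38), and promoter windows from RefSeq. Counts were scaled to the library total. With 1 library per condition no replicate error could be had. An additive model of both drugs would leave 1 residual degree of freedom, which also holds any interaction, and was not fitted as a test. Log2 ratios of scaled counts (pseudocount 1) with 95% Poisson intervals were used for all 14269 genes, and CPM intervals were exact. Only counting error is covered by the intervals and floors, since each condition had 1 library. PCR copies were not told apart by molecular identifiers, so the counting error may itself be understated. Scaling alternatives used edgeR 4.0.16 and DESeq2 1.42.0. The study methods give single-end reads of 65 bases and, for a splicing experiment, paired-end reads of 75. Which applies here was not settled, and stretches of 75 bases moved the shared percentages by at most 0.80 points. For the splicing experiment the study methods name Hisat2 as the aligner, whereas the notes for these libraries name TopHat2. The study gives the series doses and 16 h for that experiment. It gives the label doses and 10 days for other RNA sequencing of SUM159.

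The members and gene lists were chosen with earlier results of these data known. Named genes were the 9 members, direct partners, the 9p21 neighbours, up to 4 genes per other list with the largest ratio of combination to untreated, and the 3 nearest patterns. SKP2, CKS1B, CDC25B, PKMYT1, MLLT3 and LINC01239 were named after their values were seen.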

Additional observations from a re-analysis of the deposited data

Results flagged for a closer look

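CDKN3 stood out because its log2 ratio for palbociclib differed between the libraries without and with indisulam. Its departure from additivity was 1.54 on the log2 scale (1.16 to 1.92, counting error only), from -1.71 for palbociclib without indisulam and -0.17 with it. The difference rests on 1 library per condition and was not tested against variation between cultures. The spread of the same measure over 2772 genes of similar level was 0.41. No other readable member had a called departure.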

How the results depend on the processing

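Of the 210 log2 ratios of members recomputed under 6 alternatives of scaling and pseudocount, 0 left the reported counting interval, 0 reversed and 1 changed its call, CDKN2D for palbociclib against untreated (-0.98 with a pseudocount of 5). The 42 recomputed departures from additivity kept their calls. Requiring a mean of 5 CPM removed CDKN1C, after which 2 members were called for palbociclib against untreated. With this filter 0 members were called in the combination against untreated and 0 in the combination against indisulam. A 1.5-fold threshold gave 1 member called for indisulam against untreated, 4 for the combination against untreated, 2 for the combination against palbociclib and 3 for the combination against indisulam. Over all 14269 tested genes, the 1.5-fold threshold gave 3533 calls for palbociclib and 4485 for indisulam, relative to untreated. For the combination it gave 6059 relative to untreated, 4683 to palbociclib and 3167 to indisulam. The lower calls among these were 1736, 2032, 2765, 2064 and 1450 in the same order. At 2-fold, among genes with 5 CPM or more, the counts called in both directions were 833, 1212, 2104, 1396 and 544 in the same order. The number of genes with 5 CPM or more was not recorded, so these counts give no share. Without a filter, the combination against indisulam had 1783 among the 29056 genes with at least 1 read. Other scalings moved the median of all genes by less than 0.1 but turned the balance of calls, with edgeR's TMM scaling from 1197 higher and 955 lower to 1048 and 1085 for indisulam against untreated, from 1844 and 1505 to 1615 and 1719 for the combination against untreated, and from 1364 and 1053 to 1164 and 1240 against palbociclib. No paired analysis was possible because each condition had 1 library.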
